A study of Gallus gallus with 24 samples.

Results

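The genes followed here encode inward rectifier potassium channels and the regulatory subunits of ATP-sensitive potassium (KATP) channels. They are KCNJ2, KCNJ3, KCNJ4, KCNJ5, KCNJ8, ABCC8 and ABCC9, and they are 7 of 12422 gene symbols measured. They were chosen by name for their role in the channel, but with earlier results of these data known. Counts that set them beside all genes are therefore a description and not an independent test. All 7 had a value in all 24 libraries.

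The tissue was chick sinoatrial node (SAN, the pacemaker of the heart) and atria at Hamburger-Hamilton stage 30. Each was sampled freshly isolated (t0), after 14 h of explant culture in serum-containing medium with water as vehicle, or after 14 h in the same medium with CN03 at 0.25 ug/ml. CN03 is the agent whose effect the study tested, and vehicle is its control. Each of the 6 groups held 4 libraries of total RNA depleted of ribosomal RNA, and each library was a pool of 5 tissue preparations, so a library does not describe 1 embryo. The labels give no genetic change, and the vehicle and CN03 groups shared the culture, which the t0 groups did not have. Values are on the deposited log2 scale, on which a difference of 1 is a 2-fold difference, and the depth of the libraries is not known.

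Inward rectifiers pass potassium more readily into the cell than out of it and hold the membrane near the potassium equilibrium potential. Strong rectifiers of the Kir2 group (KCNJ2, KCNJ4) carry IK1, the current that keeps working myocytes at a stable resting potential and that is small in mammalian pacemaker cells. Kir3 or GIRK subunits (KCNJ3, KCNJ5) combine into the acetylcholine-gated channel through which the vagus slows the heart, and KATP channels join a Kir6 pore (KCNJ8 or KCNJ11) to a sulfonylurea receptor (ABCC8 or ABCC9) that couples the pore to the energy state of the cell.

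In the RefSeq annotation of GRCg7b, the chicken assembly named in the submitters' processing notes, KCNJ8 and ABCC9 are neighbours. KCNJ8 lies on chromosome 1 at 67006399 to 67014250 and ABCC9 at 66924027 to 66999192, with 7206 bases between them. ABCC8, on chromosome 5 at 11482957 to 11548055, has KCNJ11, the other Kir6 pore gene, 3685 bases away. KCNJ2 lies on chromosome 18 at 8819312 to 8829448, with KCNJ16 12318 bases away. KCNJ3 lies on chromosome 7 at 35347794 to 35380498 and KCNJ4 on chromosome 1 at 50945260 to 50956592. The span of KCNJ5, on chromosome 24 at 1118565 to 1245661, contains that of KCNJ1, which had no row in the expression table, and whether reads of KCNJ1 enter the KCNJ5 value was not tested.

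The tissue labels were checked on 6 pacemaker and 5 atrial marker genes. At t0, 5 of 6 pacemaker markers were higher in SAN than in atria, among them SHOX2 (log2FC 6.23) and HCN4 (log2FC 3.47), and 4 of 5 atrial markers were lower in SAN, among them BMP10 (log2FC −5.45) and NPPA (log2FC −4.75). The libraries of a group correlated with each other at Pearson r of 0.977 to 0.992 over all genes. A single row without a gene symbol took 6.58 to 17.9% of the linear sum of a library and was left out.

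After CN03, 6 of the 7 genes were lower than after vehicle in the SAN, and 5 of the 7 were lower in the atria, where KCNJ2 was higher instead. Among the 7, the KATP subunits fell furthest in the SAN, ABCC9 by 9.01-fold, ABCC8 by 7.63-fold and KCNJ8 by 5.24-fold. The KATP pore gene KCNJ11, which is not among the 7, averaged 1.96 with vehicle and 1.28 with CN03 in the SAN. In the atria the GIRK subunits KCNJ5 and KCNJ3 fell by 6.13-fold and 5.08-fold and ABCC9 by 6.35-fold. Each comparison was fitted with limma over all genes and called at a Benjamini-Hochberg adjusted p under 0.05, and in these data a call was common. Of all genes tested, 37.8% were called lower with CN03 in the SAN, against 6 of the 7 genes here. In the atria 36.8% of all genes were called lower and 35.7% higher, against 5 and 1 of the 7. The share of all genes that were called and fell by more than 1 on the log2 scale was 17.1% in the SAN and 15.6% in the atria, against 4 and 5 of the 7. The median log2FC of the 7 genes was −1.68 in the SAN and −2.19 in the atria, while the median over all genes was −0.06 and −0.01.

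The 4 CN03 libraries lay below the 4 vehicle libraries without overlap for 6 of the 7 genes in the SAN, as they did for 33.1% of all genes. In the atria they lay below for 5 of the 7 (33.7% of all genes) and above for 1 of the 7 (32.9% of all genes). In both tissues 5 of the 7 were called lower, as were 29.3% of all genes. Because whole tissue was sequenced, fewer cells of a type and less RNA per cell cannot be told apart in any of these values.

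**Figure D1:**
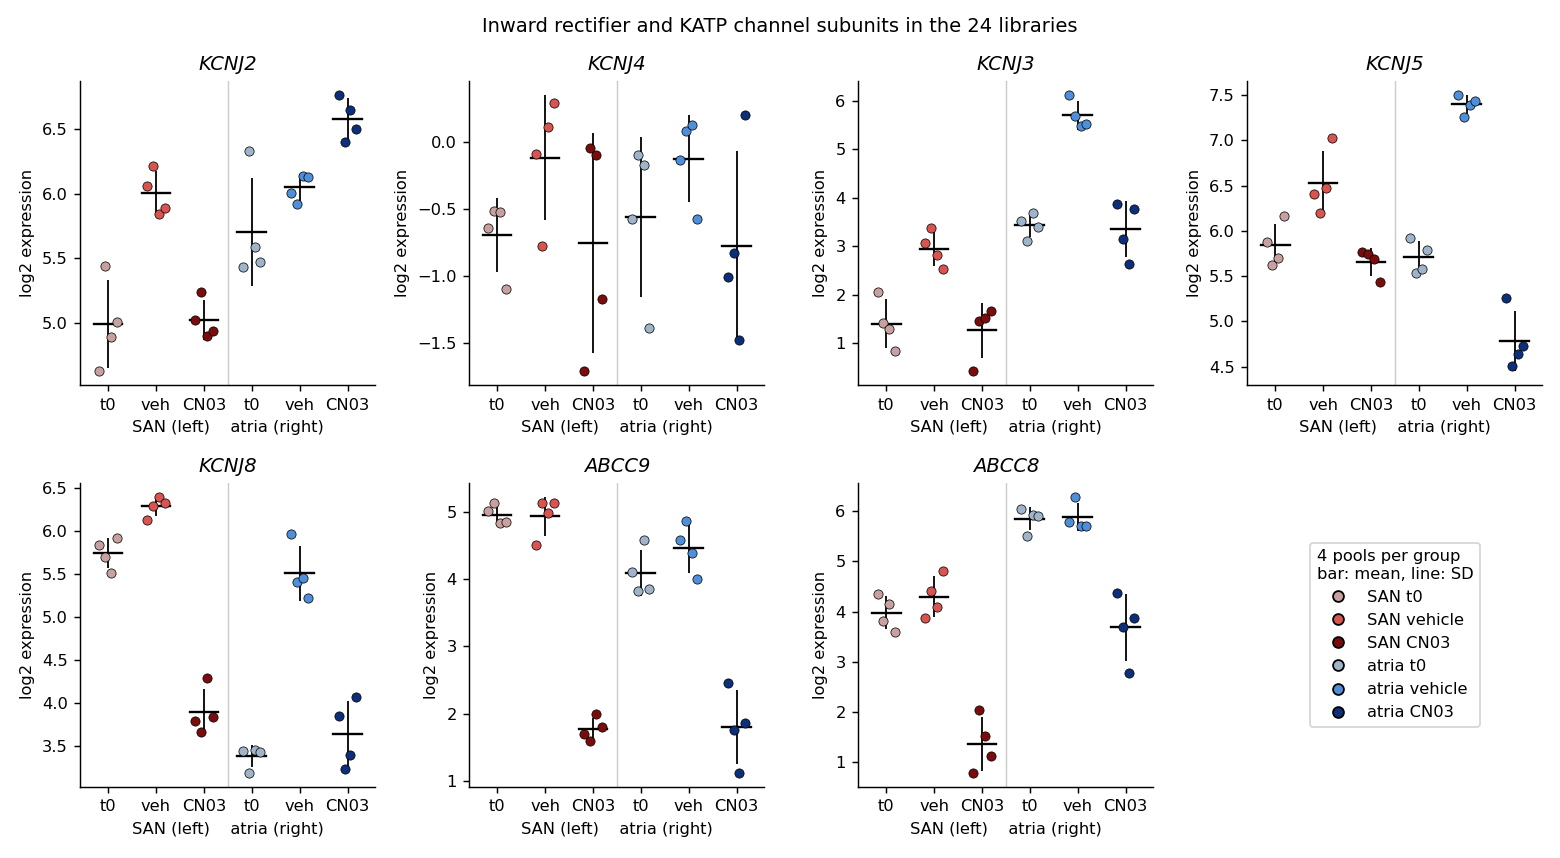
Log2 level (y axis, deposited scale) of each of the 7 genes in every library, in 6 groups on the x axis (t0, vehicle and CN03 for SAN and for atria). Points are single libraries, bars are the means of 4 and vertical lines are ± 1 SD. KCNJ2 is lowest in the SAN at t0 and with CN03 and highest in atria with CN03, while ABCC8 and ABCC9 drop only in the CN03 groups and KCNJ4 lies between −1.71 and 0.29 throughout.

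KCNJ2, the main IK1 pore subunit in mammalian ventricle, moved in opposite directions in the 2 tissues. In the SAN it read 4.62, 5.44, 4.89 and 5.01 at t0, 6.06, 6.22, 5.85 and 5.89 with vehicle, and 5.02, 5.24, 4.90 and 4.94 with CN03. The vehicle libraries stood above both other groups without overlap, and the CN03 libraries lay within the range of the fresh tissue. In the atria KCNJ2 read 5.43, 6.33, 5.59 and 5.47 at t0, 6.01, 5.92, 6.14 and 6.13 with vehicle, and 6.77, 6.40, 6.65 and 6.50 with CN03. Here the CN03 libraries were the highest of the 3 groups, and 1 fresh library stood above every vehicle library. CN03 lowered KCNJ2 in the SAN by 0.98 on the log2 scale (log2FC −0.98 ± 0.163 SE, n = 4 against 4, limma adjusted p = 1.13e-05). It raised KCNJ2 in the atria (log2FC 0.53 ± 0.163 SE, limma adjusted p = 0.00572), a call that was lost under quantile normalization (log2FC 0.32, limma adjusted p = 0.0937).

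The difference between the 2 CN03 responses of KCNJ2 was itself tested as an interaction and was −1.51 ± 0.231 (SE, log2 scale, limma adjusted p = 4.44e-05). KCNJ2 was among the 1.27% of all genes that were called lower with CN03 in SAN and higher with CN03 in atria. Culture alone raised KCNJ2 in the SAN (log2FC 1.01, limma adjusted p = 1.87e-05). In the atria the change from t0 to vehicle was not called (log2FC 0.34, 95% interval 0.01 to 0.68, limma adjusted p = 0.0739), and it was called without t0 replicate 2, the high fresh library (log2FC 0.55, limma adjusted p = 0.00167), and with array quality weights (log2FC 0.39, limma adjusted p = 0.0203). CN03-treated SAN did not differ detectably from fresh SAN in KCNJ2 (log2FC 0.03, 95% interval −0.31 to 0.37), whereas CN03-treated atria were above fresh atria (log2FC 0.88, limma adjusted p = 3.97e-05).

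The tissue contrast in KCNJ2 was not the same in the 3 groups. Fresh SAN was lower than fresh atria (log2FC −0.71, limma adjusted p = 0.00138), although the groups overlapped by 1 library and an exact permutation test of this gene alone gave p = 0.0571. With vehicle no difference was called (log2FC −0.04, 95% interval −0.38 to 0.29, limma adjusted p = 0.849). With CN03 the SAN stood 2.94-fold below the atria without overlap (log2FC −1.56, limma adjusted p = 1.19e-07).

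KCNJ4, the second Kir2 subunit listed, was among the 4.81% of genes whose mean log2 level was below 0. In the SAN it read −0.64, −0.52, −0.52 and −1.10 at t0, −0.09, −0.78, 0.11 and 0.29 with vehicle, and −1.71, −0.04, −0.10 and −1.17 with CN03. The 3 groups overlapped. It was called in 0 of 11 comparisons, with limma adjusted p from 0.142 to 0.991, and an unadjusted interval of −1.46 to 0.18 for CN03 against vehicle in the SAN (log2FC −0.64) and −1.47 to 0.16 in the atria (log2FC −0.65). The atrial difference was called when CN03 replicate 4 was left out (log2FC −0.98, limma adjusted p = 0.0321). A change in KCNJ4 was therefore not detectable at this level, which is not evidence that there was none.

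The GIRK subunits were higher with vehicle than at t0, and lower with CN03 than with vehicle. KCNJ3 (GIRK1) cannot form a working channel alone and pairs with KCNJ5 (GIRK4) in mammalian atria. In the SAN KCNJ3 read 2.06, 1.42, 1.29 and 0.83 at t0, 3.07, 3.37, 2.81 and 2.53 with vehicle, and 0.42, 1.46, 1.52 and 1.66 with CN03. All vehicle libraries were above all others, and CN03 replicate 1 was the lowest SAN library. In the atria it read 3.52, 3.11, 3.69 and 3.39 at t0, 6.12, 5.68, 5.47 and 5.51 with vehicle, and 3.86, 3.14, 2.64 and 3.76 with CN03. The vehicle libraries again stood clear, and every atrial library was above every SAN library of its own group.

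Culture raised KCNJ3 by 2.92-fold in the SAN (limma adjusted p = 0.000101) and by 4.82-fold in the atria (limma adjusted p = 4.18e-07). CN03 lowered it by 3.20-fold in the SAN (log2FC −1.68 ± 0.287 SE, limma adjusted p = 1.58e-05) and by 5.08-fold in the atria (log2FC −2.34 ± 0.287 SE, limma adjusted p = 1.19e-07). The CN03 groups lay close to fresh tissue, with differences of −0.14 (95% interval −0.73 to 0.46) in the SAN and −0.08 (95% interval −0.67 to 0.52) in the atria. The 2 tissues' CN03 responses were not shown to differ (difference 0.66, 95% interval −0.18 to 1.50, limma adjusted p = 0.239). That difference was called with a pseudocount of 1 added before the log (0.89, limma adjusted p = 0.0468).

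KCNJ5 was at a like level in both fresh tissues and differed between them in both cultured groups. In the SAN it read 5.87, 5.63, 5.70 and 6.16 at t0, 6.40, 6.20, 6.47 and 7.02 with vehicle, and 5.76, 5.74, 5.69 and 5.43 with CN03. In the atria it read 5.92, 5.54, 5.58 and 5.79 at t0, 7.50, 7.25, 7.39 and 7.44 with vehicle, and 5.26, 4.50, 4.64 and 4.72 with CN03. Vehicle libraries were the highest in each tissue without overlap, and atrial CN03 libraries were the lowest of all 24. Fresh SAN and fresh atria differed by 0.13 (95% interval −0.19 to 0.46, limma adjusted p = 0.546). With vehicle the SAN was lower than the atria (log2FC −0.87, limma adjusted p = 9.93e-05), and with CN03 it was higher (log2FC 0.88, limma adjusted p = 0.000125), each without overlap. Of all genes, 1.42% were called in those directions in both groups, a share given as a description, and KCNJ5 was the only one of the 7.

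The KCNJ5 responses differed between tissues by test. CN03 lowered KCNJ5 by 1.82-fold in the SAN (log2FC −0.87 ± 0.158 SE, limma adjusted p = 3.52e-05) and by 6.13-fold in the atria (log2FC −2.62 ± 0.158 SE, limma adjusted p = 6.11e-13). The interaction was 1.75 ± 0.223 (SE, log2 scale, limma adjusted p = 5.72e-06). Culture raised it by 1.61-fold in the SAN (limma adjusted p = 0.000934) and by 3.22-fold in the atria (limma adjusted p = 4.04e-09), with an interaction of −1.004 ± 0.223 (SE, limma adjusted p = 0.00372). Atria with CN03 ended 1.90-fold below fresh atria (limma adjusted p = 1.26e-05), while in the SAN the difference from t0 was −0.18 (95% interval −0.51 to 0.14, limma adjusted p = 0.30). Within a library, KCNJ3 minus KCNJ5 averaged −4.44, −3.58 and −4.39 over the SAN groups (t0, vehicle, CN03) and −2.28, −1.70 and −1.43 over the atrial groups. The atrial means rose from group to group, but the libraries of neighbouring groups overlapped. These differences are given as shifts between groups only, since levels of different genes are not comparable without transcript lengths.

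KCNJ8, the Kir6.1 pore subunit known from mammalian vascular smooth muscle and pericytes as well as heart, was a SAN-enriched gene in fresh tissue. In the SAN it read 5.84, 5.69, 5.51 and 5.92 at t0, 6.13, 6.29, 6.40 and 6.32 with vehicle, and 3.79, 3.66, 4.28 and 3.83 with CN03. The 3 groups were separate, with CN03 far below the other two. In the atria it read 3.44, 3.18, 3.45 and 3.43 at t0, 5.96, 5.40, 5.45 and 5.21 with vehicle, and 3.85, 3.23, 3.39 and 4.07 with CN03. Here the vehicle group stood alone at the top, and the CN03 and t0 groups overlapped. At t0 the SAN was 5.15-fold above the atria (log2FC 2.36 ± 0.167 SE, limma adjusted p = 1.37e-10). With vehicle the gap was 1.71-fold (log2FC 0.78, limma adjusted p = 0.000606) and with CN03 no difference was called (log2FC 0.26, 95% interval −0.09 to 0.60, limma adjusted p = 0.235).

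Culture raised KCNJ8 by 4.38-fold in the atria (limma adjusted p = 2.24e-10) and by 1.46-fold in the SAN (limma adjusted p = 0.00922). The interaction was −1.59 ± 0.236 (SE, log2 scale, limma adjusted p = 6.67e-05). CN03 lowered it in the SAN (log2FC −2.39 ± 0.167 SE, limma adjusted p = 1.26e-11) and in the atria by 3.66-fold (log2FC −1.87 ± 0.167 SE, limma adjusted p = 6.06e-10). The difference between those 2 responses was −0.52 (95% interval −1.01 to −0.03, limma adjusted p = 0.108). It was called when SAN CN03 replicate 3 (−0.65, limma adjusted p = 0.0404), atria vehicle replicate 1 (−0.67, limma adjusted p = 0.0304) or atria CN03 replicate 2 (−0.65, limma adjusted p = 0.0392) was left out. Against fresh tissue, CN03-treated SAN was 3.60-fold lower in KCNJ8 (limma adjusted p = 6.97e-10). In the atria the difference was 0.26 (limma adjusted p = 0.164), which was called without CN03 replicate 2 (0.39, limma adjusted p = 0.0407) and under quantile normalization (0.42, limma adjusted p = 0.0211).

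ABCC9, which encodes SUR2, the receptor that pairs with KCNJ8 in mammalian smooth muscle, did not follow KCNJ8 in culture but fell with it under CN03. In the SAN it read 5.02, 5.13, 4.84 and 4.86 at t0, 4.52, 5.13, 4.98 and 5.13 with vehicle, and 1.69, 1.59, 1.99 and 1.80 with CN03. In the atria it read 4.11, 3.83, 4.58 and 3.85 at t0, 4.58, 4.87, 4.40 and 4.00 with vehicle, and 2.46, 1.75, 1.12 and 1.85 with CN03. Fresh and vehicle libraries overlapped in both tissues and CN03 libraries were below all of them. CN03 lowered ABCC9 in the SAN (log2FC −3.17 ± 0.221 SE, limma adjusted p = 1.23e-11) and in the atria (log2FC −2.67 ± 0.221 SE, limma adjusted p = 1.73e-10), and the difference between the responses was −0.51 (95% interval −1.15 to 0.14, limma adjusted p = 0.245). The change with culture was −0.02 (95% interval −0.48 to 0.44, limma adjusted p = 0.944) in the SAN and 0.37 (95% interval −0.09 to 0.83, limma adjusted p = 0.156) in the atria.

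Fresh SAN held more ABCC9 than fresh atria, by 1.83-fold (log2FC 0.87, limma adjusted p = 0.0034). With vehicle the contrast was 0.48 (95% interval 0.02 to 0.93, limma adjusted p = 0.0871), called only without SAN vehicle replicate 1 (0.62, limma adjusted p = 0.0382), without atria vehicle replicate 2 (0.61, limma adjusted p = 0.0389) and with array quality weights (0.55, limma adjusted p = 0.0416). With CN03 it was −0.03 (95% interval −0.49 to 0.43, limma adjusted p = 0.931). Within a library, KCNJ8 minus ABCC9 averaged 0.78, 1.34 and 2.12 over the SAN groups and −0.72, 1.04 and 1.84 over the atrial groups (t0, vehicle, CN03). In each tissue the 3 groups did not overlap, so relative to the receptor transcript the pore transcript was lowest in fresh tissue and highest with CN03.

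ABCC8, which encodes SUR1, the receptor of the mouse atrial KATP channel, was an atria-enriched gene in every group. In the SAN it read 4.35, 3.82, 4.15 and 3.60 at t0, 3.87, 4.42, 4.09 and 4.80 with vehicle, and 0.78, 2.03, 1.52 and 1.12 with CN03. In the atria it read 6.05, 5.52, 5.92 and 5.91 at t0, 5.79, 6.29, 5.71 and 5.72 with vehicle, and 4.38, 3.70, 2.78 and 3.87 with CN03. Every CN03 library was below every fresh and vehicle library of its tissue, and every atrial library was above every SAN library of its own group. The SAN was 3.65-fold lower than the atria at t0 (log2FC −1.87 ± 0.278 SE, limma adjusted p = 1.09e-05), and also lower with vehicle (log2FC −1.58, limma adjusted p = 6.97e-05) and with CN03 (log2FC −2.32, limma adjusted p = 7.96e-07).

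CN03 lowered ABCC8 in the SAN (log2FC −2.93 ± 0.278 SE, limma adjusted p = 2.24e-09) and in the atria by 4.58-fold (log2FC −2.19 ± 0.278 SE, limma adjusted p = 2.05e-07). The difference between the responses was −0.74 (95% interval −1.55 to 0.08, limma adjusted p = 0.172), and it was called without atria CN03 replicate 3 (−1.04, limma adjusted p = 0.0323). Culture alone did not change ABCC8 detectably in the SAN (log2FC 0.31, 95% interval −0.26 to 0.89) or in the atria (log2FC 0.03, 95% interval −0.55 to 0.60). The 2 receptors kept opposite tissue preferences at t0. Within a library, ABCC8 minus ABCC9 averaged −0.98, −0.64 and −0.41 over the SAN groups and 1.76, 1.41 and 1.89 over the atrial groups, and the ranges of the 2 tissues did not meet in any group.

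**Figure D2:**
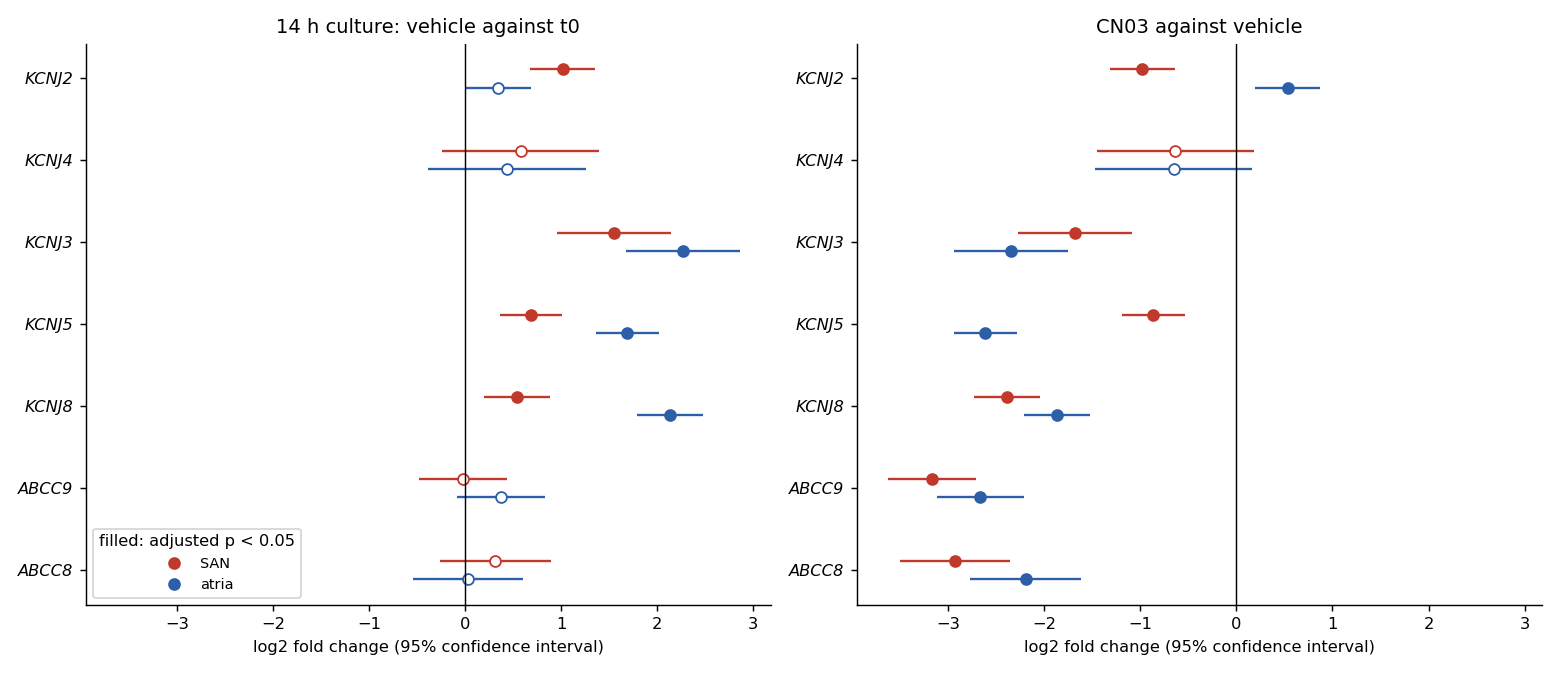
Log2 fold change with its 95% interval (x axis) for each of the 7 genes (y axis), for vehicle against t0 and for CN03 against vehicle, in SAN and in atria. Filled points have a limma adjusted p under 0.05. The 4 genes called higher with vehicle than at t0 in SAN (KCNJ2, KCNJ3, KCNJ5, KCNJ8) were all lower with CN03 than with vehicle there. The KCNJ2 point for CN03 in atria lies at 0.53, right of 0. Both sets of fold changes use the same vehicle libraries.

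Across the family, culture raised 4 of the 7 genes in the SAN (KCNJ2, KCNJ3, KCNJ5 and KCNJ8), where 25.3% of all genes were called higher, and 3 of the 7 in the atria (KCNJ3, KCNJ5 and KCNJ8), where 29.2% were. Neither sulfonylurea receptor was called in either tissue. All 4, so 4 of the 7, were also lower with CN03 than with vehicle in the SAN, a pair of calls found in 11.0% of all genes. Of the 3146 genes called higher with culture in the SAN, 1365 were also called lower with CN03. In the atria all 3, so 3 of the 7, had both calls, as did 13.5% of all genes. There, 1679 of the 3627 genes called higher with culture were also called lower with CN03. Vehicle and CN03 explants were separate 14 h cultures, so no explant was followed over time. The culture and CN03 comparisons share the vehicle libraries, so their values are not independent. Measured against fresh tissue, CN03-treated SAN was lower in 3 of the 7 genes (KCNJ8, ABCC8 and ABCC9), where 39.7% of all genes were. CN03-treated atria were lower in 3 (KCNJ5, ABCC8 and ABCC9) and higher in 1 (KCNJ2), where 39.1% and 36.4% of all genes were. For ABCC9 the fall from t0 was 9.14-fold in the SAN and 4.91-fold in the atria, and for ABCC8 it was 6.14-fold and 4.49-fold. In the SAN, KCNJ5 was called lower than at t0 under quantile normalization (log2FC −0.35, limma adjusted p = 0.0472).

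The test of whether the CN03 response differed between tissues called KCNJ5 on the positive side, as it did 11.7% of all genes, and KCNJ2 on the negative side, as it did 15.4%. For culture it called KCNJ5 and KCNJ8 on the negative side, as it did 6.09% of all genes, which means a larger rise in the atria. The culture interaction of KCNJ2 was 0.67 (95% interval 0.19 to 1.15, limma adjusted p = 0.0589). It was called without SAN t0 replicate 2 (0.82, limma adjusted p = 0.0150), without atria t0 replicate 1 (0.76, limma adjusted p = 0.0374) or replicate 4 (0.75, limma adjusted p = 0.0460), under quantile normalization (0.76, limma adjusted p = 0.0356) with array quality weights (0.68, limma adjusted p = 0.0177) and with the pool number as a replicate block (0.67, limma adjusted p = 0.0343).

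**Figure D3:**
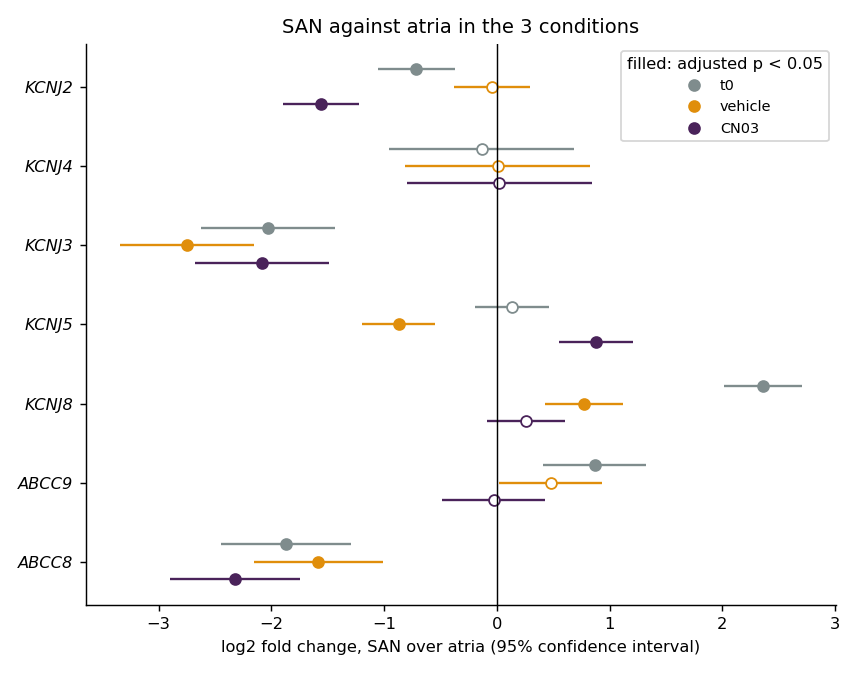
SAN minus atria on the log2 scale (x axis), with 95% intervals, for each of the 7 genes (y axis) in the t0, vehicle and CN03 groups. Filled points have a limma adjusted p under 0.05. The KCNJ5 contrast runs from 0.13 to −0.87 to 0.88, the KCNJ8 contrast closes from 2.36 to 0.26, and KCNJ3 and ABCC8 stay between −2.75 and −1.58.

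Between tissues, 2 of the 7 genes were higher in SAN at t0 (KCNJ8 and ABCC9) and 3 were lower (KCNJ2, KCNJ3 and ABCC8), where 18.7% and 17.1% of all genes were. With vehicle 1 was higher (KCNJ8) and 3 lower (KCNJ3, KCNJ5 and ABCC8), against 22.8% and 19.8% of all genes. With CN03 1 was higher (KCNJ5) and 3 lower (KCNJ2, KCNJ3 and ABCC8), against 17.8% and 20.2%. KCNJ3 was lower in SAN in each group, by 4.08-fold, 6.73-fold and 4.25-fold. The KATP pore and receptor that are neighbours on chromosome 1 shared the direction of the tissue contrast in fresh tissue, and ABCC8 shared that of its own neighbour KCNJ11, which was lower in SAN by 2.14 on the log2 scale (log2FC −2.14, limma adjusted p = 8.52e-08).

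Of the other inward rectifier and sulfonylurea receptor genes listed, 4 of 11 had a row. With CN03 1 was called higher and 2 lower in the SAN, and 0 higher and 1 lower in the atria. KCNJ12, a Kir2 pore that also carries IK1 in mammals, averaged 2.03, 2.90 and 4.84 over the SAN groups (t0, vehicle, CN03) and 2.66, 5.49 and 5.49 over the atrial groups. CN03 raised it in the SAN (log2FC 1.93, limma adjusted p = 1.31e-09), where KCNJ2 fell, and left it in the atria at a difference of −0.01 (limma adjusted p = 0.971), with an interaction of 1.94 (limma adjusted p = 6.49e-06). The tissue difference in the CN03 response of KCNJ12 was thus opposite in sign to that of KCNJ2. Culture raised KCNJ12 in both tissues (log2FC 0.88 in SAN, limma adjusted p = 0.000254, and 2.83 in atria, limma adjusted p = 6.18e-12).

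KCNJ11, the Kir6.2 pore next to ABCC8, fell with CN03 in the SAN (log2FC −0.68, limma adjusted p = 0.0102, beside −2.93 for ABCC8) and in the atria (log2FC −1.08, limma adjusted p = 0.00017, beside −2.19 for ABCC8). The difference between the genes was not tested. KCNJ15, a Kir4 subunit, rose in cultured SAN (log2FC 2.23, limma adjusted p = 7.98e-07) and fell with CN03 there (log2FC −2.56, limma adjusted p = 2.97e-08). Its level was low, with SAN means of 0.08 at t0, 2.30 with vehicle and −0.25 with CN03. KCNJ16, the neighbour of KCNJ2, was not called with CN03 (log2FC −0.41 in SAN and 0.40 in atria, limma adjusted p = 0.115 and 0.126).

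**Figure D4:**
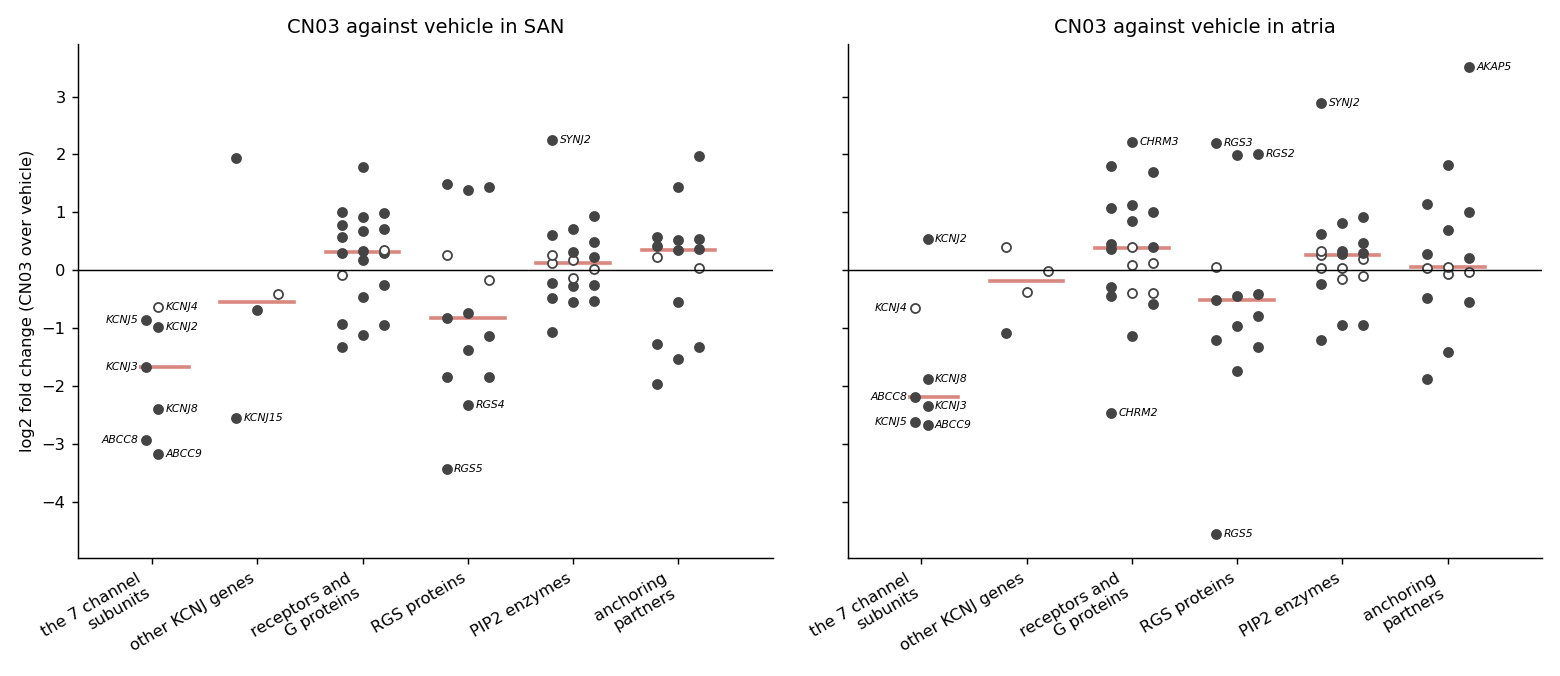
Log2 fold change of CN03 over vehicle (y axis) in SAN and in atria for the 7 channel genes and 5 other lists (x axis). The other lists hold the measured genes of the rest of the inward rectifier family and of the partner groups. Each point is a gene, filled where the limma adjusted p is under 0.05, and each bar is the median of a list. The medians of the 7 channel genes are −1.68 and −2.19, and those of the 5 other lists lie between −0.82 and 0.38. The list of other inward rectifier genes has medians of −0.55 and −0.19, with 1 gene called higher and 2 lower in SAN. The 7 genes were chosen with earlier results of these data known, so the medians are a description and not a test.

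The partners of these channels did not share a direction, and their counts are read against all genes, of which 33.4% were called higher and 37.8% lower with CN03 in the SAN, and 35.7% higher and 36.8% lower in the atria. Of 20 receptor and G protein genes measured upstream of GIRK channels (21 listed), 12 were higher and 6 lower with CN03 in the SAN (median log2FC 0.32), and 10 higher and 5 lower in the atria (median 0.38). CHRM2, a muscarinic receptor that opens GIRK channels, averaged 5.80, 6.34 and 5.22 over the SAN groups and 6.57, 7.21 and 4.75 over the atrial groups. It fell with CN03 by 1.12 on the log2 scale in the SAN (log2FC −1.12, limma adjusted p = 9.6e-06) and by more in the atria (log2FC −2.46, limma adjusted p = 2.76e-11), with an interaction of 1.34 (limma adjusted p = 0.000495). Like KCNJ5, CHRM2 was lower in SAN than in atria with vehicle (log2FC −0.87, limma adjusted p = 0.00052) and higher with CN03 (log2FC 0.47, limma adjusted p = 0.045). The other receptors measured, CHRM3, CHRM4 and ADORA1, had higher means with CN03 than with vehicle in both tissues. CHRM4 averaged 4.14 with vehicle and 4.83 with CN03 in the SAN, and 4.05 and 5.05 in the atria. The G protein subunits moved both ways. GNAO1 fell (log2FC −1.32 and −1.13), whereas GNAI1 (1.01 and 1.70) and GNG4 (1.79 and 1.80) rose, in SAN and atria respectively. GNG4 was low, with means of −0.65 with vehicle and 1.14 with CN03 in the SAN and −0.91 and 0.89 in the atria.

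RGS proteins speed the return of G proteins to rest and so end GIRK current. All 13 genes of this list were measured, among them RGS7BP, a binding protein of RGS7 that is not itself an RGS protein. With CN03 3 of the 13 were higher and 8 lower in the SAN (median log2FC −0.82). In the atria 3 were higher and 9 lower (median −0.52). RGS4 (−2.33 and −1.74) and RGS5 (−3.43 and −4.56) were among those that fell. RGS6, which ends the muscarinic response in mouse SAN, had a log2FC of −1.38 in the SAN (limma adjusted p = 4.46e-07) and −0.41 in the atria (limma adjusted p = 0.0494). RGS2 was among those that rose (1.43 and 2.01).

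All inward rectifiers need the membrane lipid PIP2 to open. Of 19 PIP2 synthesis and breakdown genes measured (20 listed), 7 were higher and 7 lower in the SAN and 8 higher and 4 lower in the atria, and the 7 that were lower in the SAN are a share close to that of all genes. SYNJ2, a PIP2 phosphatase, rose (log2FC 2.25 and 2.88), and PIP5K1B, a PIP2-making kinase, fell (−1.07 and −1.20). Of 15 anchoring and trafficking partners measured (18 listed), 8 were higher and 5 lower in the SAN, and 7 higher and 4 lower in the atria. AKAP5 (1.97 and 3.51) and AKAP9 (1.44 and 1.82), which anchor kinases, rose, and SNTB1 (−1.97 and −1.88), a membrane adaptor protein, fell.

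Markers of cell types moved alongside the channel genes. Of 10 cardiomyocyte markers, 8 were lower and 1 higher with CN03 in the SAN (median log2FC −0.63), and 4 lower and 1 higher in the atria (median −0.32). Their summed level ran from 12.95 to 13.61 with vehicle and from 12.58 to 12.86 with CN03 in the SAN, and from 14.29 to 14.52 and from 13.49 to 14.03 in the atria. That sum is the log2 of the added linear values, so genes of high level weigh most in it. Its mean fell by less than the means of KCNJ3, KCNJ5, KCNJ8, ABCC8 and ABCC9 did in each tissue. Single markers did not all follow the sum. In the SAN, MYH7 averaged 10.24 with vehicle and 8.69 with CN03, MYBPC3 10.66 and 9.58, and RYR2 7.44 and 6.43. KCNJ5 averaged 6.52 and 5.66 there. MYH15, the marker that was higher, averaged 8.13 and 9.24. The part of myocyte number in the fall of the channel genes was not tested.

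Of 8 pericyte and smooth muscle markers measured (10 listed), 7 were higher and 1 lower with CN03 in the SAN, and 5 higher and 2 lower in the atria. Their summed level rose from between 9.97 and 10.28 to between 12.17 and 12.37 in the SAN, and from between 10.07 and 10.25 to between 12.70 and 12.81 in the atria, while KCNJ8 and ABCC9 fell. With CN03 the highest of the 8 were DES (mean 11.32 in SAN, 12.25 in atria) and ACTA2 (10.47 and 10.02), so the sum mostly follows them. In the SAN, PDGFRB averaged 5.35 with vehicle and 5.93 with CN03, and RGS5 averaged 5.83 and 2.39. In the atria PDGFRB averaged 4.68 with vehicle and 5.15 with CN03, and RGS5 averaged 6.63 and 2.06. Whether these markers followed the number of such cells or their level within cells was not tested, so the higher sum does not show more such cells. The marker that was lower in the SAN was RGS5, which is also counted among the RGS proteins. Of 9 macrophage markers measured, 9 were lower in the SAN and 8 in the atria, and their summed level went from between 6.94 and 7.14 to between 3.69 and 4.23 in the SAN and from between 5.40 and 6.30 to between 3.63 and 3.85 in the atria. Of 9 fibroblast markers, 8 were lower in the SAN and 7 in the atria. Of 11 endothelial markers, 1 was higher and 5 lower in the SAN and 10 higher and 0 lower in the atria. Epicardial markers (5 of 7 measured) were lower in 3 in the SAN, and lower in 4 and higher in 1 in the atria, with summed levels that averaged 9.13 with vehicle and 7.55 with CN03 in the SAN and 9.12 and 6.99 in the atria. Of 6 pacemaker markers, 1 was higher and 5 lower in the SAN and 3 higher and 2 lower in the atria. Of 5 atrial myocyte markers, 4 were higher and 1 lower in each tissue. Of 5 erythroid markers measured, 0 were called in the SAN and 4 were lower in the atria. Of 6 neuron markers measured, 1 was higher and 3 lower in each tissue.

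In culture, where KCNJ3, KCNJ5 and KCNJ8 rose, 3 cardiomyocyte markers were higher and 1 lower in the SAN and 2 higher and 0 lower in the atria. Pericyte and smooth muscle markers were higher in 4 and lower in 2 in the SAN and higher in 2 and lower in 3 in the atria. Macrophage markers were higher in 4 and lower in 2, and higher in 5 and lower in 3. Endothelial markers were higher in 1 and lower in 5, and 7 were lower in the atria, where all 5 erythroid markers were lower too. Fibroblast markers were higher in 3 and lower in 1 in the SAN and higher in 2 and lower in 1 in the atria. Epicardial markers were lower in 3 in each tissue, and neuron markers were higher in 2 and lower in 1 in each. Of all genes, 25.3% were called higher with culture in the SAN and 29.2% in the atria. The shares called lower are not given, so the counts of lower markers describe the markers only.

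In fresh tissue, 8 of 10 cardiomyocyte markers were lower in SAN than in atria, as were KCNJ2, KCNJ3 and ABCC8. The 1 that was higher was MYH15 (mean 9.39 in SAN and 7.93 in atria). Higher in SAN, as were KCNJ8 and ABCC9, were 5 of 8 pericyte and smooth muscle markers (1 was lower), 7 of 9 macrophage markers and 6 of 11 endothelial markers. So were 3 of 6 neuron, 2 of 5 epicardial and 2 of 9 fibroblast markers (1 fibroblast marker was lower). Of 5 erythroid markers 0 were called. Of all genes, 18.7% were called higher and 17.1% lower in SAN than in atria at t0. The summed pericyte and smooth muscle level was between 9.79 and 10.04 in fresh SAN and between 9.85 and 10.14 in fresh atria, so those ranges overlapped. DES was the highest of the 8 in both (means 8.76 and 9.11) and weighs most in that sum. The summed macrophage level was between 6.07 and 6.35 in fresh SAN and between 4.99 and 5.70 in fresh atria. The part of any of these cell types in the channel results was not tested.

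The genes most like each channel gene over the 24 libraries were found by Pearson r, which is given as a description, since the libraries share groups and treatment. For KCNJ2 they were NLRX1 (r = 0.901), DHTKD1 (0.883) and PLA2G4A (0.860). For KCNJ3 they were GOT1 (0.957), TMEM120A (0.955) and SLC25A4 (0.952), and for KCNJ5 they were NDP (0.931), LGI1 (0.921) and FDXR (0.911). For KCNJ8 they were MATN2 (0.954), ACSL6 (0.951) and NR0B1 (0.944). The nearest to ABCC8 were PITPNM3 (0.972), NDUFS1 (0.969) and FHL2 (0.968), and the nearest to ABCC9 were APBA2 (0.977), BBS4 (0.973) and ADAMTS15 (0.972). KCNJ4 had no close match, with PKDREJ at 0.733, MAGI3 at 0.651 and FBXO3 at 0.628.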

How the data were processed

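Total RNA of 24 pools was sequenced from stranded, ribosomal RNA-depleted libraries. The submitters' processing notes name FastQC, kallisto, edgeR, limma and the GRCg7b assembly, without versions. The deposited table holds log2 expression per gene symbol, normalized and filtered by the authors on a scale that is not named. Depth is unknown, and the linear sums of the libraries ran from 859652 to 1282050.

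A group-means model over all 6 groups (18 residual degrees of freedom) was fitted to 12422 genes with limma 3.58.1 in R 4.3.3 (trended variance), and p-values were adjusted over all genes by the Benjamini-Hochberg method. A call is an adjusted p under 0.05. Groups come from the labels. P-values measure the spread between pools. The named genes were the 7 subunits, the listed partner and marker genes a result turned on, and the 3 genes of highest Pearson r with each subunit among genes with a mean log2 level over 0. The subunits and lists were chosen with earlier results of these data known. An exact permutation test of 4 against 4 cannot give a p below 0.0286. On simulated data the model called 86% of genes changed by a log2FC of 1. Figures used Python 3.11.15 and matplotlib 3.10.9. Alternatives were quantile normalization, median centring, a pseudocount of 1, a filter on low values, array quality weights, a log2FC limit of 1, a replicate block, exact permutation tests and leaving out each library.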

Additional observations from a re-analysis of the deposited data

Results flagged for a closer look

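In 3 of the 42 sets of 4 libraries examined (7 genes in 6 groups), 1 library stood far from the other 3 by Dixon's test, which flags about 1 in 20 sets by chance. KCNJ3 read 0.42 in SAN CN03 replicate 1, against 1.46 to 1.66 in the others. KCNJ8 read 3.18 in atria t0 replicate 2, against 3.43 to 3.45. ABCC8 read 6.29 in atria vehicle replicate 2, against 5.71 to 5.79.

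Among the channel genes followed here, 4 responses differed between SAN and atria by the interaction test of the limma model. Other inward rectifier genes, such as KCNJ12, are not in this count. For CN03 the same test called 15.4% of all genes on the negative side and 11.7% on the positive side. For culture it called 6.09% of all genes on the negative side. The CN03 response of KCNJ2 in SAN minus that in atria was −1.51, and that of KCNJ5 was 1.75. The culture response of KCNJ5 in SAN minus that in atria was −1.004, and that of KCNJ8 was −1.59.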

How the results depend on the processing

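With a fold change limit of 1 on the log2 scale, fewer of the 7 genes were called in several comparisons. The number went from 6 to 4 for CN03 against vehicle in SAN and from 6 to 5 in atria. It went from 4 to 2 for vehicle against t0 in SAN and from 4 to 2 for CN03 against t0 in atria. For SAN against atria it went from 5 to 3 at t0, from 4 to 2 with vehicle and from 4 to 3 with CN03. Leaving out each library in turn left 6 genes called for CN03 against vehicle in SAN in every fit, and gave 6 to 7 in atria and 2 to 3 for each interaction. With that limit, 17.1% of all genes in SAN and 15.6% in atria were called lower with CN03 than with vehicle. The matching shares are not given for the other comparisons or for the fits without a library. Those counts therefore describe the 7 genes only. KCNJ4 has no value under the filter on a mean log2 level of 0.

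The changes of sign were all in differences that were not called. Under quantile normalization KCNJ4 for CN03 against vehicle in SAN became 0.38, ABCC8 for vehicle against t0 in atria −0.0055, KCNJ2 for SAN against atria with vehicle 0.0063, and KCNJ3 for CN03 against t0 0.36 in SAN and 0.12 in atria. With median centring ABCC9 for SAN against atria with CN03 became 0.010. With array quality weights ABCC9 for vehicle against t0 in SAN became 0.040, ABCC8 for vehicle against t0 in atria −0.040, and ABCC9 for SAN against atria with CN03 0.070. Over the fits without 1 library, vehicle against t0 ran from −0.11 to 0.095 for ABCC8 in atria and from −0.085 to 0.12 for ABCC9 in SAN. SAN against atria ran from −0.26 to 0.19 for ABCC9 with CN03 and from −0.12 to 0.0083 for KCNJ2 with vehicle. CN03 against t0 ran from −0.090 to 0.18 for KCNJ2 in SAN. For KCNJ3 it ran from −0.33 to 0.15 in SAN, and the atrial range was −0.25 to 0.16. The cause was not tested.

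Pools of the same number in different groups are not stated to share embryos or a day. Their deviations from the group means correlated at −0.17 to 0.50 over 36 pairs, 27 of them over 0.1, and 45 of 72 matches were best with the library's own number. All 4 pairs were over 0.1 in 2 of 9 comparisons, CN03 against vehicle in atria and SAN against atria at t0. Best matches with the own number were 8 of 8 and 7 of 8 in those 2. They were 6 of 8 for CN03 against vehicle in SAN and for SAN against atria with CN03. They were 1 of 8 for vehicle against t0 in SAN, 2 of 8 for SAN against atria with vehicle, and 5 of 8 in the rest. That is a hint from the data that the numbers may pair pools in some comparisons, which the labels do not state. The numbers were not taken to pair the pools, and the main fit used no pairing in any comparison. The fit with the number as a replicate block kept the count of calls in 10 of 11 comparisons and raised it from 2 to 3 for the culture interaction, through KCNJ2 (0.67, limma adjusted p = 0.0343). Depth, transcript lengths and the scale of the deposited log2 values are unknown. Differences between genes are therefore read only as shifts between groups. Levels are set side by side only to name the markers of most weight in a sum and to mark KCNJ4, KCNJ15 and GNG4 as low. The counting error of low values such as those of KCNJ4 could not be estimated.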
